A study of Mus musculus with 4 samples.

Results

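The genes described here are 9 members of the pluripotency network of mouse embryonic stem cells (mESC): Pou5f1, Esrrb, Nr5a2, Tfcp2l1, Tbx3, Prdm14, Sall4, Zfp42 and Utf1. They were chosen by name, out of 46467 annotated genes on the ordinary chromosomes other than 11, and the rule uses no measured value, although the genes were picked with earlier results of these data known. What was measured around them is CTCF binding, as summits of CTCF CUT&RUN peaks lying within 10 kb of the gene. Summits of different libraries whose neighbours lay within 100 bp were joined into 1 position, which gave 91 positions near the 9 genes out of 123265 in all.

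In CUT&RUN an antibody brings a nuclease to the protein, here CTCF, and the DNA cut free beside it is sequenced. Each of the 4 mESC lines gave 1 library, so no difference between genotypes has a replicate check, no p-value is given, and intervals cover counting error only. All lines carried a HoxB deletion (Del) on one chromosome 11. On the other they carried Del(i9-13), a deletion in HoxB, and an inserted array of CTCF binding sites, Ins(CBS5-10). The line called Ins had only these alleles, and Ins:Del(CBS8-10) lacked the array sites CBS8-10. The line called Inv had the array inverted, Inv(CBS5-10), and Inv:Del(CBS7-10) had it inverted and lacked CBS7-10. None of the 9 genes lies on chromosome 11, so every one of them is away from the edited chromosome. The labels do not say whether a line is 1 clone. CTCF peaks do not measure expression, so the stem cell identity of the lines could not be checked here against marker RNA.

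CTCF is a zinc-finger protein that binds a long DNA motif and halts cohesin, and so helps to set the ends of chromatin loops. In mESC a circuit of transcription factors keeps cells able to self-renew and to form every tissue of the embryo. Pou5f1 (Oct4) is a core member, the nuclear receptors Esrrb and Nr5a2 and the factors Tfcp2l1 and Tbx3 belong to its naive branch, and Zfp42 (Rex1) and Utf1 are widely used as readouts of the undifferentiated state.

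The promoters of 3 members show the contrast that the summits made at annotated starts. Of the 6 members in the promoter table, Utf1 alone had a summit within 1 kb of a start in every list. Tbx3, Prdm14 and Sall4 have no entry in it and could not be judged, and a position in every list lay 0.204 kb inside the low-coordinate end of Tbx3. Zfp42 had only weak summits at its start, in some lists. Pou5f1 had no summit in its promoter window, although this holds the same 7 letters as that of Utf1. Each sequence below is the 250 bases before the start, 5′ to 3′ on the gene's strand, from RefSeq on GRCm38.p6 (mm10).
Utf1, chr7:139943606-139943855, plus strand: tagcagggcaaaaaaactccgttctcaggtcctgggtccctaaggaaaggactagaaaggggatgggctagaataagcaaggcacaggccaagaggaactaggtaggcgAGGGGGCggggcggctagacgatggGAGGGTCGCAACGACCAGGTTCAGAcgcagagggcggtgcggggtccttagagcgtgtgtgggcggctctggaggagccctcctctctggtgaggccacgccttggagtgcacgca
Zfp42, chr8:43307010-43307259, minus strand: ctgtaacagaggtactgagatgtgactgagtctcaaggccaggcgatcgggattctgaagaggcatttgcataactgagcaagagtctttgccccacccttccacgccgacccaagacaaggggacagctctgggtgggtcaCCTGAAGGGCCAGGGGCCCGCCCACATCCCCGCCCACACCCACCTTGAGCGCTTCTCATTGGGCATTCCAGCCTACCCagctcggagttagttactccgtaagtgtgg
Pou5f1, chr17:35505782-35506031, plus strand: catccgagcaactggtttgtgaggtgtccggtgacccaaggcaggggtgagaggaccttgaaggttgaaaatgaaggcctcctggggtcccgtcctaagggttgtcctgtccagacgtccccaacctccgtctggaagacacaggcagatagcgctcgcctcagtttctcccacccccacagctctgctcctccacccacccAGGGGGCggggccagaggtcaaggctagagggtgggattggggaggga
In Utf1 the first capitals mark the letters AGGGGGC and the second the stretch that the 4 summits span. In Zfp42 they mark the stretch between the Ins and Inv:Del(CBS7-10) summits, and in Pou5f1 they mark AGGGGGC.

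The letters AGGGGGC, part of a widely described form of the CTCF motif, were searched on both strands in promoter windows of 300 bases, from 250 before to 50 after the start. They stood in 13.0% of 19484 windows of protein-coding genes, in 26.1% of those with a summit in every list and in 10.3% of those with none in any list. Among the 9 annotated starts of the 6 members in the table, the windows of Pou5f1 and Utf1 held them. A longer form was CC, any 3 letters, AG, any 2 letters, GGC, which can overlap the first. It stood in 9.94% of all windows, in 25.9% of those with a summit in every list and in none of the 9 member windows. A match is a run of letters, not a measured site, and its absence concerns this window only.

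Across the 4 libraries the members had 60 summits in Ins, 36 in Ins:Del(CBS8-10), 41 in Inv and 68 in Inv:Del(CBS7-10). All 9 members had a summit in Ins, Inv and Inv:Del(CBS7-10), and 8 had one in Ins:Del(CBS8-10), where Zfp42 had none. Of all genes, 68.5%, 64.4%, 61.1% and 69.6% had a summit within 10 kb in the same order of libraries. A summit in every list was found for 8 of the 9 members, against 56.0% of all genes and 73.4% of protein-coding genes. Of those 8, 7 also had a position present in every list, and Tfcp2l1 did not when summits were joined within 100 bp. The share of all genes with such a position was not counted, so this 7 has no background beside it.

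The median number of positions was higher for the members than for genes in general, though not for each of them. It was 8 positions per member, against 4 per protein-coding gene and 2 per gene of any kind. Per 10 kb of the gene and its flanks it was 1.75 for the members, 0.844 for protein-coding genes and 0.607 for all genes. Zfp42, with 3 positions, was below the protein-coding median, and Nr5a2, at 0.580 per 10 kb, was below both medians per length. The median gene length was 14.2 kb for the members and 17.7 kb for protein-coding genes.

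Of the 91 positions, 20 were in every list, 18 in 3, 18 in 2 and 35 in 1. Over all positions 32.9% were in every list and 38.6% in 1 list only, so the members' share in 1 list was near the background and that in every list was below it. The summits that stood in 1 list only numbered 13 in Ins, 2 in Ins:Del(CBS8-10), 6 in Inv and 14 in Inv:Del(CBS7-10). Of the 20 positions in every list, 9 lay within the gene and 11 outside it.

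**Figure D1:**
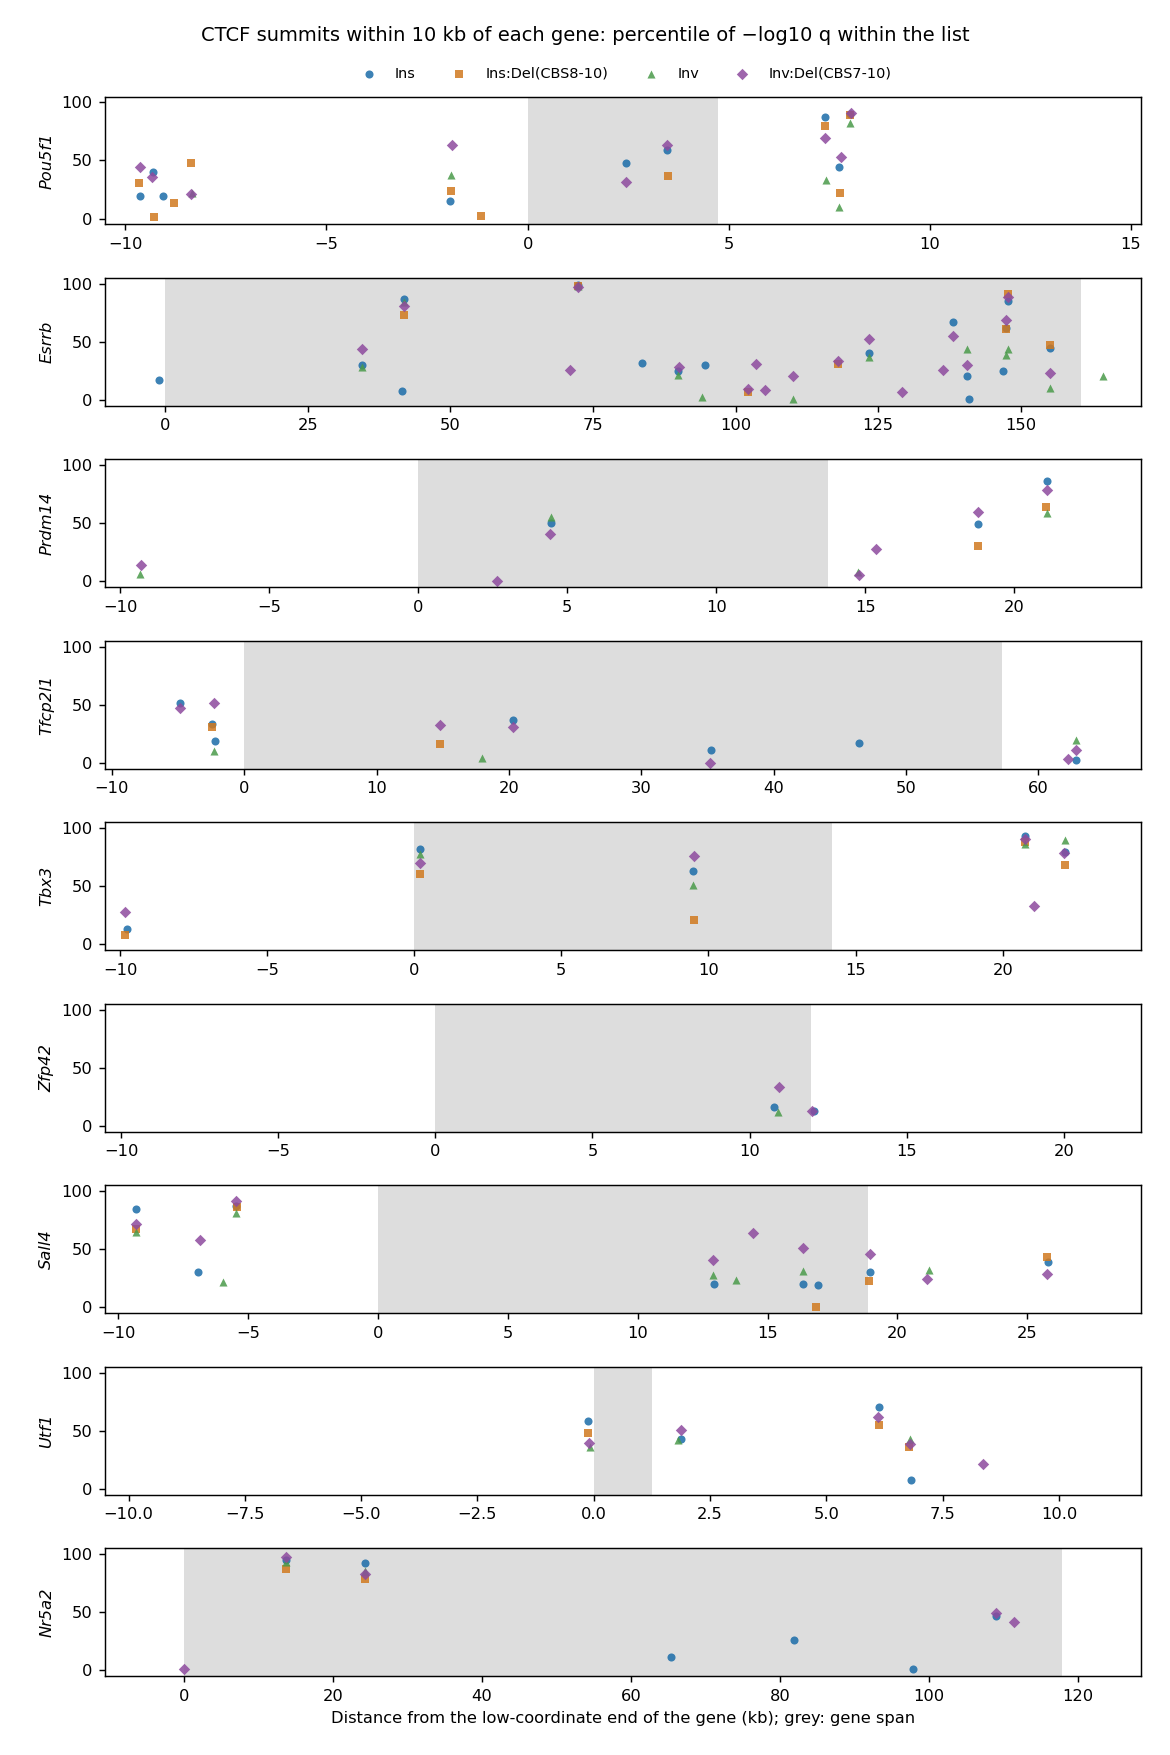
CTCF summits around each of the 9 genes in the 4 libraries. Each panel is 1 gene, the horizontal axis is the distance from its low-coordinate end in kb, grey marks its span, the vertical axis is the within-list percentile of −log10 q (0 to 100) and each point is a summit, coloured by library. Esrrb has the most positions (27) and Zfp42 the fewest (3), with no point of Ins:Del(CBS8-10).

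Positions in every list were mostly strong ones. No read depth was used here. The median pileup at a summit, the number of fragments stacked there, was 26 in Ins, 18 in Ins:Del(CBS8-10), 14 in Inv and 35 in Inv:Del(CBS7-10). The lists held 93969, 74555, 66365 and 99177 peaks in that order. Ins:Del(CBS8-10) thus had fewer summits near the members than Inv, although its list is longer. At Esrrb it had 7 against 12 in Inv. Other members went both ways, with 10 against 5 at Pou5f1 and 5 against 7 at Sall4. Among member positions in the Ins list, all 13 with a −log10 q of 50 or more were in every list, against 97.3% of all Ins positions of that strength. Between 25 and 50 it was 3 of 6, against 76.7%. Between 10 and 25 it was 2 of 12, against 34.4%. Below 10 it was 2 of 29 (1 of 20 between 5 and 10, 1 of 9 below 5), against 9.95% and 3.94%. The part that depth has in the absence of a weak summit was not tested.

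**Figure D2:**
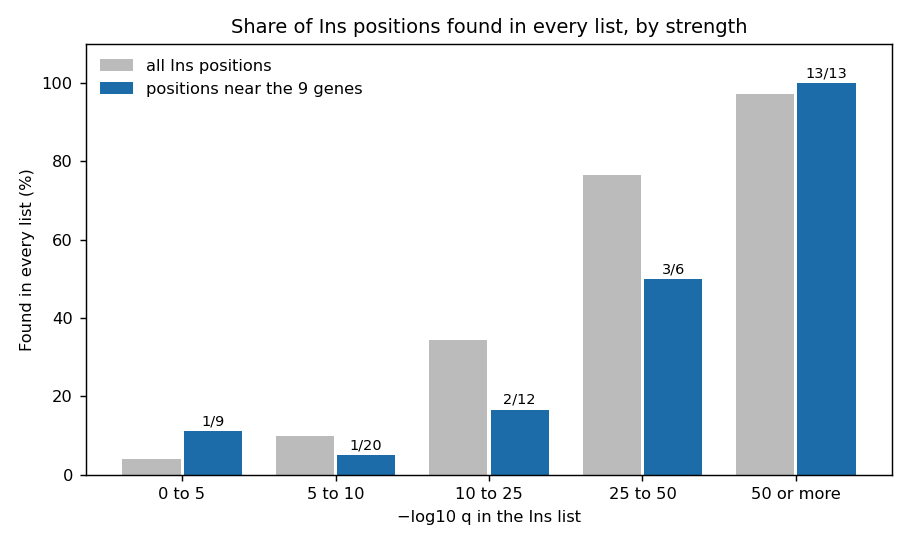
Share of Ins positions that were found in every list, by their −log10 q in the Ins list. Grey bars are all Ins positions, blue bars those near the 9 genes with their counts; the share goes from 3.94% of all positions in the weakest class to 97.3% in the strongest.

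Strength is given as −log10 q, the peak caller's significance for a summit against its local background. It grows with the number of fragments as well as with the fold over background, so it is not a measure of fold. Its percentile within the same list says how a summit ranks among the peaks of its own library. The lists differ in length, and a longer list with more weak peaks gives the same site a higher percentile, so a difference in percentile between libraries is not read as a change in binding. The member summits had a median percentile of 37.8 in Ins, 45.6 in Ins:Del(CBS8-10), 36.1 in Inv and 40.8 in Inv:Del(CBS7-10). Ranked by fold instead, these medians were 29.5, 40.3, 32.9 and 35.5. Most member summits were thus weaker than the middle of their list. Those at positions in every list had medians of 84.8, 68.0, 61.5 and 77.3, and those at other positions had medians of 25.6, 26.7, 21.7 and 31.2. At or above the 90th percentile stood 5, 2, 3 and 5 summits. Positions are numbered below within each gene from the low-coordinate side, and distances are measured from the median of a position's summits.

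**Figure D3:**
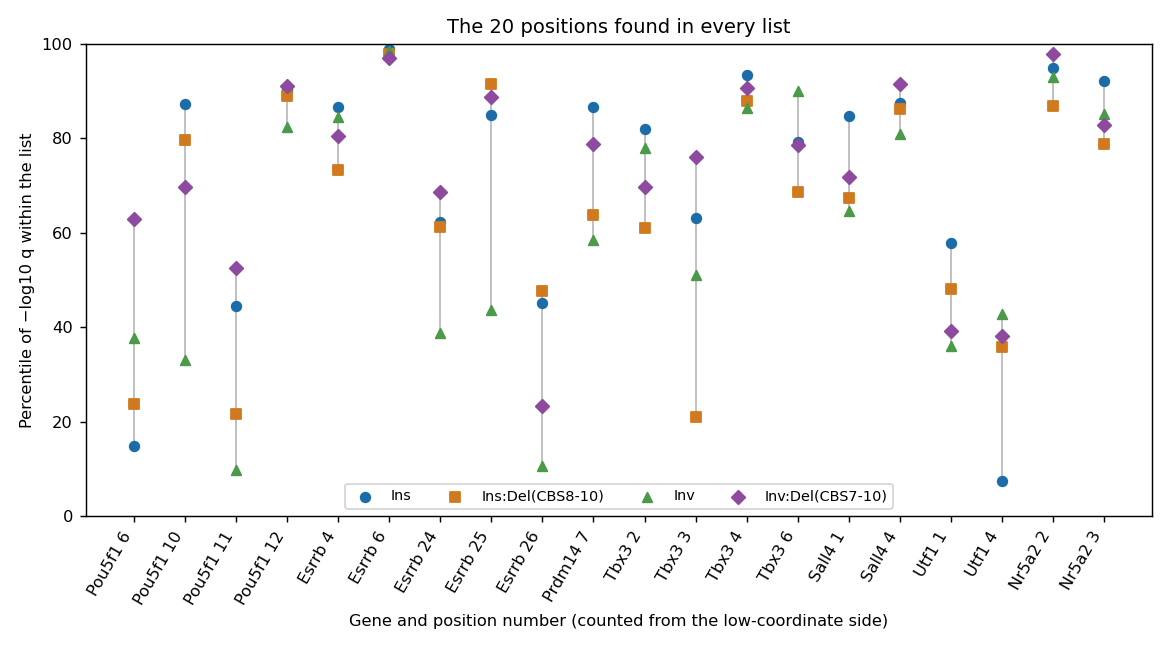
Within-list percentile of −log10 q (vertical axis, 0 to 100) at the 20 member positions found in every list (horizontal axis), with 1 point per library. Esrrb 6 lies between 97.0 and 98.9 in every list, whereas Esrrb 25 ranges from 43.8 in Inv to 91.6 in Ins:Del(CBS8-10).

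Pou5f1 (chr17:35506032-35510777, plus strand) encodes the POU-domain factor Oct4, without which the pluripotent cells of the embryo do not form. Its 12 positions included 4 in every list, 3 of them past the gene's end and within the span of the neighbouring Tcf19. The strongest, Pou5f1 12, lay 3.278 kb past the end and had a −log10 q of 92.8 in Ins, 43.5 in Ins:Del(CBS8-10), 35.2 in Inv and 189 in Inv:Del(CBS7-10). The percentiles were 90.3, 89.0, 82.4 and 91.1, so by −log10 q it was a strong peak in each list. Ranked by fold they were lower, at 57.9, 61.5, 66.8 and 62.9.

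At Pou5f1 10, 2.659 kb past the end, the −log10 q was 83.0, 32.0, 7.78 and 66.5, with percentiles of 87.4, 79.8, 33.0 and 69.7. The scaled pileup, defined further on, was likewise lowest in Inv, at 0.952, with 2.17, 2.03 and 1.28 in the others. Pou5f1 11, between them, was weaker, with −log10 q values of 14.0, 4.82, 4.29 and 27.3. On the other side, Pou5f1 6 lay 1.906 kb before the start, in the span of the long noncoding RNA gene Gm32362, with values of 5.09, 5.31, 9.03 and 46.5. It was below the middle of its list in 3 libraries and at the 63.0th percentile in Inv:Del(CBS7-10), whereas its scaled pileup was highest in Inv, at 0.810, with 0.703 in Inv:Del(CBS7-10).

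Both positions within Pou5f1 flanked an internal annotated start. Pou5f1 8 was 0.336 kb before it, in Ins (−log10 q of 16.3) and Inv:Del(CBS7-10) (10.6). Pou5f1 9 was 0.697 kb after it, with values of 26.7, 7.75 and 47.2 in all lists but Inv. Of all positions with a −log10 q between 25 and 50 in Inv:Del(CBS7-10), 30.2% had no summit in Inv. Pou5f1 9 lies near the top of that range, and the share at its own strength was not counted. Between 8.367 and 9.649 kb before the start lay 5 positions, of which 3 were each in 3 lists.

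Summits near Pou5f1 lay in a high local background. The background that the peak caller set its summits against had a median of 10.4 fragments in Ins, 3.56 in Ins:Del(CBS8-10), 3.16 in Inv and 12.8 in Inv:Del(CBS7-10). The medians over all peaks were 1.96, 1.20, 0.64 and 2.56. The members' next highest median in Ins was that of Prdm14, at 4.30, and in Inv:Del(CBS7-10) that of Sall4, at 10.3. The Sall4 positions in or near Atp9a had backgrounds close to or above those medians of Pou5f1, with 9.86 in Ins and 17.7 in Inv:Del(CBS7-10) at Sall4 1. The fold over background at Pou5f1 12 was accordingly 10.3, 9.62, 11.5 and 12.8, below the 23.7, 19.9, 24.4 and 29.1 of Esrrb 6, whose pileup of 168 in Ins was close to the 145 of Pou5f1 12. What these high backgrounds come from was not tested.

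Esrrb (chr12:86361117-86521628, plus strand) encodes an orphan nuclear receptor that sustains self-renewal. It is the longest member, at 160.5 kb, and had 27 positions, of which 25 were within the gene. In all, 5 were in every list and 15 in 1 list only. Esrrb 6 was the strongest member position in the Ins, Ins:Del(CBS8-10) and Inv lists, at 72.335 kb into the gene and 11.808 kb past its second annotated start. Its −log10 q was 170, 73.3, 83.9 and 269, with percentiles of 98.9, 98.0, 98.5 and 97.0. It was among the strongest peaks of each list.

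Esrrb 4, 41.823 kb after the first start, had values of 80.6, 26.3, 37.9 and 116, between the 73.4th and the 86.6th percentile. Towards the gene's end, Esrrb 24 and 25 lay close together, near 12.812 kb before the end. Esrrb 25 had a −log10 q of 75.9, 48.3, 10.4 and 170, with percentiles of 84.9, 91.6, 43.8 and 88.8. It was strong in 3 libraries and below the middle of the Inv list. At its neighbour Esrrb 24 the values were 31.2, 17.8, 9.28 and 62.7, and Inv was again the lowest in percentile, at 38.8.

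Esrrb 26, 5.341 kb before the end, was weak everywhere, with a −log10 q of 14.5, 11.2, 4.34 and 7.65. Esrrb 20 was strong for a position missing from some lists, with 38.6 in Ins and 31.4 in Inv:Del(CBS7-10) and no summit in either other list. Of all Ins positions with a −log10 q between 25 and 50, 2.05% lacked a summit in both of those lists.

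Nr5a2 (chr1:136842562-136960448, minus strand) encodes another orphan nuclear receptor, which can stand in for Oct4 in reprogramming. All of its 8 positions were within the gene, and at 0.580 per 10 kb it was the most thinly covered member. The 2 positions in every list lay deep in the gene, far from any start. Nr5a2 2, 13.773 kb before the gene's end, had a −log10 q of 117, 40.4, 54.4 and 291, with percentiles of 95.0, 86.9, 93.0 and 97.9. It was the strongest member position in Inv:Del(CBS7-10). Nr5a2 3, 24.335 kb before the end, had values of 101, 31.2, 38.8 and 129, between the 78.8th and the 92.1st percentile. Near the second annotated start there were only positions of few lists. Nr5a2 7, 2.124 kb after it, had 15.7 in Ins and 23.6 in Inv:Del(CBS7-10), and Nr5a2 8, 0.251 kb before it, had 16.2 in Inv:Del(CBS7-10) alone.

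Tfcp2l1 (chr1:118627923-118685168, plus strand) encodes a naive-state factor that acts downstream of LIF signalling. Its 11 positions included none in every list, 1 in 3 lists and 6 in 2. A group of 4 lay before the start. Tfcp2l1 1, 4.899 kb before it, had 19.2 in Ins and 21.4 in Inv:Del(CBS7-10), near the middle of both lists at the 51.7th and 47.4th percentile. Tfcp2l1 2, 2.476 kb before the start, had 9.51 in Ins and 6.53 in Ins:Del(CBS8-10). Tfcp2l1 3, 2.329 kb before it, had 4.29 in Inv and 26.5 in Inv:Del(CBS7-10). Tfcp2l1 4, 2.198 kb before it, had 5.51 in Ins alone. Positions 2, 3 and 4 lie so close that joining summits within 250 bp makes them a single position in every list. The position in 3 lists, Tfcp2l1 11, lay 5.596 kb past the end with values of 2.49 in Ins, 5.73 in Inv and 4.75 in Inv:Del(CBS7-10). No summit near Tfcp2l1 was above the 52.0th percentile of its list.

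Tbx3 (chr5:119670534-119684724), a T-box repressor of differentiation, had the largest share of positions in every list, 4 of 6. For Tbx3, Prdm14 and Sall4 distances are from the low- and high-coordinate ends. The strand of these genes was not used, so neither end is named as the start. Tbx3 2 lay 0.204 kb inside the low end, in the span of the long noncoding RNA gene Tbx3os1, with a −log10 q of 68.4, 17.6, 30.0 and 66.9 and percentiles of 82.1, 60.9, 78.0 and 69.8. Within the gene, Tbx3 3 had 32.2, 4.71, 12.9 and 92.8. Its percentile ran from 21.1 in Ins:Del(CBS8-10) to 76.0 in Inv:Del(CBS7-10), with Ins and Inv between them at 63.1 and 51.1.

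The strongest, Tbx3 4, lay 6.572 kb past the high end and 0.078 kb from the annotated start of another long noncoding RNA gene, Tbx3os2. Its values were 107, 41.9, 40.5 and 185, between the 86.4th and the 93.4th percentile. Tbx3 6, 7.911 kb past the end, had 62.0, 22.6, 47.2 and 106, and stood highest in Inv, at the 90.1st percentile, against 79.4, 68.7 and 78.6 in the other libraries.

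Prdm14 (chr1:13113428-13127163), a PR-domain factor that represses DNA methylation genes in naive cells, had 1 of 7 positions in every list. This was Prdm14 7, 7.343 kb past the high end, with a −log10 q of 80.8, 19.3, 16.1 and 106 and percentiles of 86.7, 63.9, 58.5 and 78.8. It was above the middle of every list. Within the gene, Prdm14 3 had 17.7 in Ins, 14.6 in Inv and 15.4 in Inv:Del(CBS7-10). Prdm14 6, 5.046 kb past the high end, had 17.2, 6.55 and 39.0 in all lists but Inv.

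Sall4 (chr2:168748332-168767201), a zinc-finger partner of Oct4, had 12 positions, 2 of them in every list. Both lay below the gene's low end, within the neighbouring gene Atp9a or near its start. Sall4 4, 5.462 kb below the end and 0.734 kb from the Atp9a start, had a −log10 q of 83.6, 39.3, 33.4 and 194 and percentiles of 87.5, 86.2, 81.0 and 91.6. Sall4 1, 9.307 kb below the end, had 75.3, 21.8, 19.5 and 74.1, between the 64.6th and the 84.7th percentile. Both were above the middle of every list by −log10 q. Ranked by fold, Sall4 4 still was, but Sall4 1 had percentiles of 59.0, 51.6, 44.1 and 41.5. It was thus below the middle by fold in Inv and Inv:Del(CBS7-10).

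At the other end, Sall4 10 lay 0.065 kb outside the gene's high end, in the span of the long noncoding RNA gene Gm14261. It had 8.37, 5.08 and 19.2 in all lists but Inv. Sall4 7 was in Inv:Del(CBS7-10) only, with a −log10 q of 49.7, the 64.2nd percentile and a pileup of 90. Of all positions between 25 and 50 in that list, 3.72% were in no other list. Sall4 7 lies at the top of that range, and the share at its own strength was not counted.

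Utf1 (chr7:139943856-139945112, plus strand), a chromatin-associated factor of undifferentiated cells, is the shortest member, at 1.257 kb, and none of its 5 positions was within the gene. Utf1 1 lay 0.112 kb before the start, inside the sequence printed above, with a −log10 q of 25.5, 11.4, 8.59 and 14.4 and percentiles of 57.9, 48.1, 36.1 and 39.1. It was above the middle of the Ins list and below the middle of the others. Its pileup, scaled as described further on, was 0.562 in Ins, 0.552 in Ins:Del(CBS8-10), 0.571 in Inv and 0.243 in Inv:Del(CBS7-10), so the first 3 were close and the last was lowest. Past the gene's end, Utf1 3 and 4 lay at the start and within the span of the long noncoding RNA gene Gm16201. Utf1 3, 4.871 kb past the end, was the stronger, with 43.1 in Ins, 14.3 in Ins:Del(CBS8-10) and 43.8 in Inv:Del(CBS7-10), and had no summit in Inv. Of all Ins positions of −log10 q between 25 and 50, 20.2% had none there. Utf1 3 lies in the upper part of that range. Utf1 4, 5.539 kb past the end, had 3.76, 7.54, 10.2 and 14.1, at percentiles from 7.58 in Ins to 42.9 in Inv.

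Zfp42 (chr8:43295067-43307009, minus strand), a zinc-finger gene switched off early as cells leave the naive state, had the fewest positions of any member, 3, and none in more than 2 lists. Zfp42 3 was at the start, with summits in the sequence printed above, at a −log10 q of 4.53 in Ins and 5.06 in Inv:Del(CBS7-10). Zfp42 1, 1.168 kb after the start, was in Ins only, at 5.39. Zfp42 2, 1.038 kb after it, had 4.74 in Inv and 11.5 in Inv:Del(CBS7-10). These are low values, at the 12.1st to the 33.5th percentile of their lists, with pileups from 7 to 19. Zfp42 1 and 2 lie so close that joining summits within 250 bp makes them a single position in 3 lists. The nearest summit in Ins:Del(CBS8-10) was 14.1 kb past the gene's high end, with a −log10 q of 3.46.

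Summits at annotated starts could be counted for part of the members. The promoter table holds 6 of the 9 members with 9 starts. A summit within 1 kb of a start was found in at least 1 list for 4 of the 6 (Pou5f1 at its internal start, Nr5a2, Zfp42 and Utf1), against 45.8% of 16003 protein-coding genes of the table. In every list it was 1 of the 6, Utf1, against 19.7%. Tbx3, Prdm14 and Sall4 were not part of this count. Of the 19484 promoter windows, 9.91% held a summit in every list.

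To compare libraries at 1 position, the pileup was divided by the library's median pileup over all positions in every list, which was 64 in Ins, 29 in Ins:Del(CBS8-10), 21 in Inv and 111 in Inv:Del(CBS7-10). The spread of a position is the highest such scaled pileup over the lowest. The 20 member positions had a median spread of 1.71, from 1.06 to 4.42, and all 40342 shared positions with a pileup in every list had a median of 1.79 and a 90th percentile of 3.05. The members thus varied between lines about as much as CTCF positions in general.

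The narrowest and the widest spread lay at Pou5f1 and Esrrb. Pou5f1 12 had pileups of 145, 69, 47 and 261, which scale to 2.27, 2.38, 2.24 and 2.35. Esrrb 26 had 19, 15, 5 and 13, which scale to 0.297, 0.517, 0.238 and 0.117. Its pileups are so low that the intervals run from 11.4 to 29.7, 8.40 to 24.7, 1.62 to 11.7 and 6.92 to 22.2.

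Another 2 positions, with larger pileups in most libraries, had a wide spread. Esrrb 25 had 93, 61, 15 and 194 fragments, which scale to 1.45, 2.10, 0.714 and 1.75, a spread of 2.94 with Inv the lowest. Tbx3 3 had 41, 9, 16 and 104, which scale to 0.641, 0.310, 0.762 and 0.937, a spread of 3.02 with Ins:Del(CBS8-10) the lowest. That lowest value rests on 9 fragments, with an interval of 4.12 to 17.1. Both spreads were inside the 90th percentile of all shared positions. The highest scaled pileup was in Ins at 4 of the 20 positions, in Ins:Del(CBS8-10) at 4, in Inv at 9 and in Inv:Del(CBS7-10) at 3. Over all shared positions Inv was highest at 37.0% and the others at 15.8%, 25.2% and 22.0%.

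**Figure D4:**
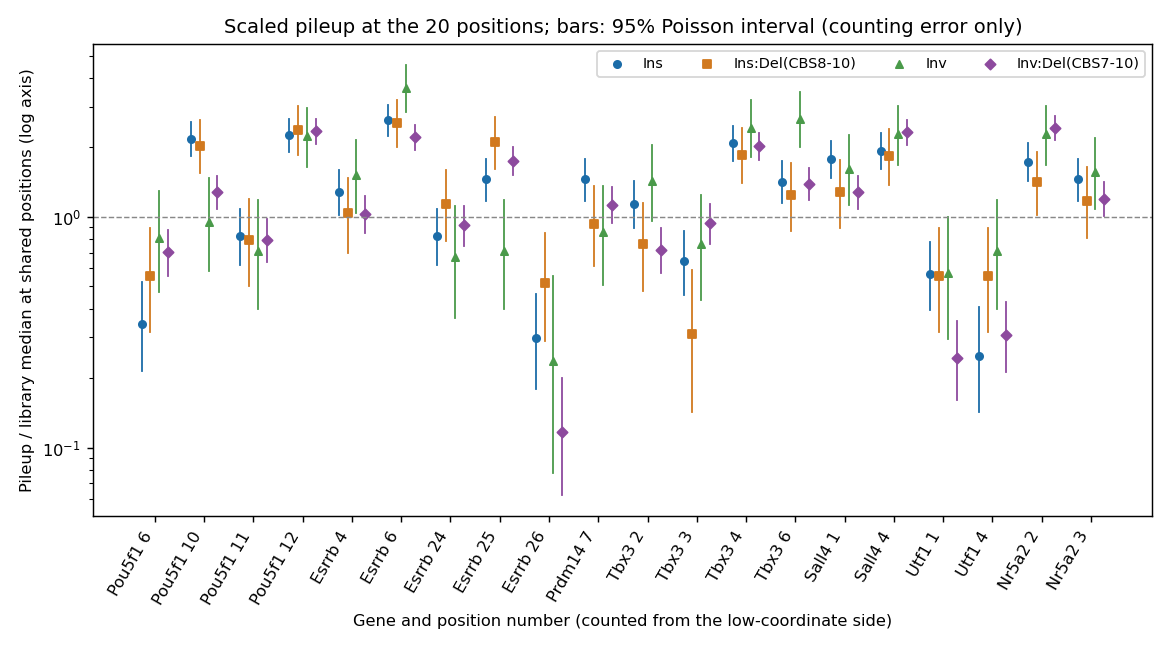
Pileup divided by the library's median at shared positions (vertical axis, log scale) at the 20 member positions found in every list, with 1 point per library and bars for the exact 95% Poisson interval, which covers counting error only. The 4 points of Pou5f1 12 lie between 2.24 and 2.38, and those of Esrrb 26 between 0.117 and 0.517.

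Within a library, 2 neighbouring positions share its depth, so their ratio needs no scaling. This comparison was added after the data were seen, with 95% intervals. It took the 2 positions in every list with the highest −log10 q in Ins, at each member that had them. At Pou5f1, Esrrb and Tbx3, which had more than 2 such positions, choosing by Ins can itself raise the Ins ratio. Other lists can pick other pairs there: in Inv, Pou5f1 6 had a higher −log10 q (9.03) than Pou5f1 10 (7.78). At Pou5f1 the positions 10 and 12 are 0.619 kb apart. The pileup of 10 over that of 12 was 0.959 (0.754 to 1.22) in Ins, 0.855 (0.594 to 1.23) in Ins:Del(CBS8-10), 0.426 (0.239 to 0.732) in Inv and 0.544 (0.440 to 0.670) in Inv:Del(CBS7-10). The Ins interval lies above those of both lines with the inverted array, and that of Ins:Del(CBS8-10) overlaps them. How often pairs of positions elsewhere differ so was not tested, so this is not read as particular to Pou5f1. With 1 library per genotype, a difference between lines and one between libraries cannot be told apart.

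At Esrrb the ratio of 4 over 6 was 0.488, 0.405, 0.421 and 0.463, the most even of the pairs. This evenness is that of the chosen pair only. Esrrb 25, with a −log10 q in Ins of 75.9 against 80.6 at Esrrb 4, was left out by the rule. Its pileups were 93, 61, 15 and 194, beside 168, 74, 76 and 246 at Esrrb 6, an uneven pair. At Nr5a2 the ratio of 3 over 2 was 0.838 (0.629 to 1.11), 0.829, 0.688 and 0.493 (0.397 to 0.608). At Sall4 the ratio of 1 over 4 was 0.919 (0.707 to 1.20), 0.698, 0.708 and 0.550 (0.445 to 0.678). In both of these Inv:Del(CBS7-10) was lowest and its interval lay under that of Ins. The share of pairs elsewhere that differ so was not counted, so this is not read as a trait of these genes. At Tbx3 the ratio of 2 over 4 was 0.545, 0.407, 0.588 and 0.356 (0.272 to 0.461), and at Utf1 the ratio of 4 over 1 was 0.444 (0.230 to 0.822), 1.00, 1.25 and 1.26. At Utf1 Ins was the lowest, and its interval overlapped all the others.

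A list of 30 other pluripotency genes, among them Sox2, Nanog and Klf4, gives a setting for these counts. It was written with earlier results of these data known. Of its 29 genes on the chromosomes used, 28, 27, 27 and 29 had a summit within 10 kb in the order of libraries above, and 26 had one in every list. Their median number of summits was 4, 3, 3 and 5 per gene, with a median length of 6.55 kb, and that of the 9 members was 6, 3, 4 and 7.

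The limit of 10 kb left some summits just out. The farthest inside were at Tbx3, 9.816 kb away, with a −log10 q of 4.64, 3.17 and 9.28 in all lists but Inv, and at Pou5f1, 9.649 kb away, with 5.61, 6.57 and 18.7 in the same lists. The nearest outside were at Sall4, 10.505 kb away, with 5.25, 3.67 and 14.8 in these lists again, and at Esrrb, 10.932 kb away, with 10.2 in Inv:Del(CBS7-10). On both sides of the limit these named summits were weak or moderate. A stronger position, at Sall4, lay 9.307 kb away, also inside the limit, and was in every list. Its −log10 q was 75.3 in Ins, 21.8 in Ins:Del(CBS8-10), 19.5 in Inv and 74.1 in Inv:Del(CBS7-10). The limit thus does not touch weak summits only. Within 5 kb, 14 member positions were in every list, against 20 within 10 kb.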

How the data were processed

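Peak lists of the 4 libraries were used as deposited, 1 list per library. They were made on mm10 with MACS2 2.2.7.1, Bowtie2 2.4.5, bedtools 2.30.0, cutadapt 4.1 and Picard, per the submitters' processing notes, and their settings and control were not given in the sources used here. Chromosome names in the deposited lists hold 2 copies of chromosome 11. These were left out of the positions, the gene counts and the scaling. They stayed in the within-list percentiles, the peak counts and the median pileups of the lists. The authors' score is a whole-number form of the −log10 q. The −log10 p-value and −log10 q-value, and the fold (a ratio of pileup to local background), are those deposited by the authors.

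Genes came from the RefSeq table of GRCm38.p6. Pileup and background were recovered from fold and −log10 p (tolerance 0.001), uniquely for 99.9%, 99.4%, 99.8% and 100% of peaks, and the recovery and the joining of summits were tested on simulated data. Intervals are exact, at 95%. No test between genotypes was possible. All 9 members were named, with any gene nearer to a position. Members and lists were chosen with earlier results of these data known, and the 7-letter motif, the pair ratios, the local backgrounds and the shares of like-strength positions absent from other lists were added after the data were seen. Alternatives were other distances, thresholds, joining rules, rankings and scalings, and leaving out Inv. Python 3.11.15, NumPy 2.4.6, pandas 2.3.3, SciPy 1.17.1 and Matplotlib 3.10.9 were used.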

Additional observations from a re-analysis of the deposited data

How the results depend on the processing

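Within 5 kb the members had 23 summits in Ins:Del(CBS8-10), and within 25 kb 95 in Ins, with 32 positions in every list. Peaks with a −log10 q of at least 10 gave 31, 18 and 16 summits in Ins, Ins:Del(CBS8-10) and Inv, 49 positions and 12 in every list. The 20000 strongest peaks of each list gave 13, 9, 9 and 8 summits (Inv:Del(CBS7-10) last), 5 members with one in each library but Ins, 13 positions, 7 of them in every list, and 5 members with a summit in every list. Scaling by genome background gave a median spread of 2.80, against 2.49 at all shared positions. The other 41 values stayed within 1.5 times or, for percentiles, 1 SD. Without Inv, 28 of 85 positions were in every list. Summits below a −log10 q of 10 were seldom in every list, the part of depth in this was not tested, and no genotype had a replicate. No paired analysis was possible because each genotype has 1 library and no result comes from a test.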
